A study of Mus musculus with 18 samples.

Results

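The genes described here encode the motor and light chains of axonemal dynein, the ATP-driven motor that bends cilia and sperm tails, together with Ttc25 (also named Odad4), which helps to attach outer dynein arms to the axoneme. They were chosen by name, and all probe sets annotated to 1 of these 10 genes alone were taken, which gave 16 of the 45037 probe sets on the array. The 10 genes were 6 heavy chains (Dnah1, Dnah2, Dnah6, Dnah7a, Dnah8 and Dnah12), 3 light chains (Dnali1, Dnal1 and Dnal4) and Ttc25, out of 15307 genes that the array could test. A probe set was tested where its signal lay above the 40th percentile of its own array on at least 3 of the 18 arrays. By that filter 14 of the 16 were tested and each gene kept at least 1.

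Total RNA came from whole testes of mice of 4 groups, measured at 14 and 17 days postpartum (dpp). At 14 dpp there were 5 arrays of repro9/repro9 mutants and 3 of wild type (wt in the labels), and at 17 dpp there were 5 arrays of repro9/repro9 mutants and 5 of wild type. The repro9 allele lies in Mybl1, the gene of A-MYB, which switches on genes in spermatocytes, and per the series' text the ages enrich for early to middle and for late pachytene spermatocytes. No treatment, strain or pooling of animals is given in the sources used here. The sources used here do not say that each array is a separate mouse, so the p-values measure the spread between arrays, which may be technical.

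An axoneme carries rows of outer and inner dynein arms on its microtubule doublets. Heavy chains are the motors, intermediate and light chains hold and regulate them, docking factors fix the arms to the doublets, and assembly factors fold and preassemble the arms in the cytoplasm. In the testis the axoneme of the sperm tail is built in spermatids after meiosis, and many axonemal transcripts are first made in spermatocytes. Cytoplasmic dynein, which carries cargo along microtubules in most cells, has its own heavy chains.

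The promoters of the heavy chain with the largest difference (Dnah8), of the only member that passed at 14 dpp (Dnah7a) and of a light chain with little difference (Dnal1) are shown because they differ in how many MYB words they hold. They were chosen after the values were seen, so the order of word count and difference among them comes from the choice. Members not shown did not all keep that order: Dnah12 held more words than Dnah7a and had a smaller fall at 17 dpp. A relation between word count and difference was not tested. Each promoter window runs from 250 bases before a RefSeq transcript start to 50 bases after it on build GRCm38.p6, with that start at base 251. The Dnah7a window lies inside the gene span given below, which ends at 53707301, so its start is not the outermost one. Capitals mark the words AACGG and AACTG, both taken from the MYB consensus AACNG, on either strand (on the other strand they read CCGTT and CAGTT).
Dnah8, chr17:30626686-30626985, plus strand: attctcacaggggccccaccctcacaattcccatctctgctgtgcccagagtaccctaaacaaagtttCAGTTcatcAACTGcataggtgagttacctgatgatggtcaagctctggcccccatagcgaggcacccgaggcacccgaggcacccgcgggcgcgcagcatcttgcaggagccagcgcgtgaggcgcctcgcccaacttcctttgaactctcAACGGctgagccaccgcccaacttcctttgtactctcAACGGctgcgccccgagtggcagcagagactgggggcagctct
Dnah7a, chr1:53706735-53707034, minus strand: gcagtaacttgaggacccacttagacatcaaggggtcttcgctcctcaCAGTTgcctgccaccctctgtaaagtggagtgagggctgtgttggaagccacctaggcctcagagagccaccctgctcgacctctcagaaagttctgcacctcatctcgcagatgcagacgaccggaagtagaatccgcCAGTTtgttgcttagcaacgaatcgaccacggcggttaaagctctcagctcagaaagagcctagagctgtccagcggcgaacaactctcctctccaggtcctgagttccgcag
Dnal1, chr12:84114078-84114377, plus strand: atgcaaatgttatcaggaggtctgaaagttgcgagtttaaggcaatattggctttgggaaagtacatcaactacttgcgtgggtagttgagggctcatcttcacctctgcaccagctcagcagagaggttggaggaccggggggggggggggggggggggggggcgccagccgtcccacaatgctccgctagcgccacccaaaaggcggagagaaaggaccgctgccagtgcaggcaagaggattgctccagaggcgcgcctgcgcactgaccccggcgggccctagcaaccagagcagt

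The Dnah8 window held 4 of these words, 2 of each kind. The AACGG words began 30 bases before the start and at base 8 after it, and the 30-base stretches around them were identical at 29 of 30 positions. Dnah7a held 2 AACTG words on the opposite strand, and Dnal1 held 0 of either word. RefSeq promoters were matched for 9 of the 10 members (Ttc25 had none), and 8 of the 9 held at least 1 word. Dnah12 held 3, Dnah2 held 2, and Dnah1, Dnah6, Dnali1 and Dnal4 held 1 each. The windows of Dnah1 and Dnah6, like that of Dnah7a, lie inside the gene spans given below. The Dnal1 start, though not its whole window, also lies inside its gene span, which begins at 84114279. The counts depend on the start used. Among all 32851 RefSeq promoters of the same length, 55.1% held at least 1 such word (17.4% AACGG and 44.8% AACTG), and 1.3% held 4 or more. A match is a description of the letters and not a binding site.

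The arrays differed in the ratio of 3′ to 5′ signal of the β-actin control probe sets, a measure of how far the labelled RNA reaches toward the 5′ end, and by it they formed 3 sets not given in the labels. Set 1 (ratio 2.31 to 2.92) held mutant replicates 1 and 2 of each age, wild-type replicates 1 and 2 of 14 dpp and wild-type replicate 1 of 17 dpp. Set 2 (1.45 to 1.49) held the other 4 arrays of 14 dpp and set 3 (103 to 125) the other 7 arrays of 17 dpp. Mybl1 itself gave a signal of 68.1 to 248.7 in mutants against 511.6 to 774.5 in wild type at 14 dpp, and 83.4 to 292.7 in mutants against 1076 to 3959 in wild type at 17 dpp. Signals below are MAS5 signals on a linear scale, listed by replicate, and a log2 difference is mutant minus wild type with its standard error (SE) and the adjusted p of limma. Levels are not comparable between probe sets.

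At 17 dpp 6 of the 10 members were lower in mutants by limma at an adjusted p under 0.05, namely Dnah8, Ttc25, Dnah7a, Dnah6, Dnah2 and Dnah12, and 0 were higher. Over all genes 5.83% were called lower and 2.03% higher at that age. All 10 members had a negative difference, with a median log2 difference of −2.43, against 0.26 over all genes. Dnah6 met the filter of 3 arrays only through the wild-type arrays of 17 dpp, on which it was high. Of the other 9 members 5 were called lower (median −2.36). At 14 dpp 1 member, Dnah7a, was called lower and 0 were called higher, where 0.32% of all genes were called lower and 0% higher. At that age 9 of the 10 had a negative difference (median −0.72, against 0.003 over all genes), and 4 had an unadjusted p under 0.05.

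**Figure D1:**
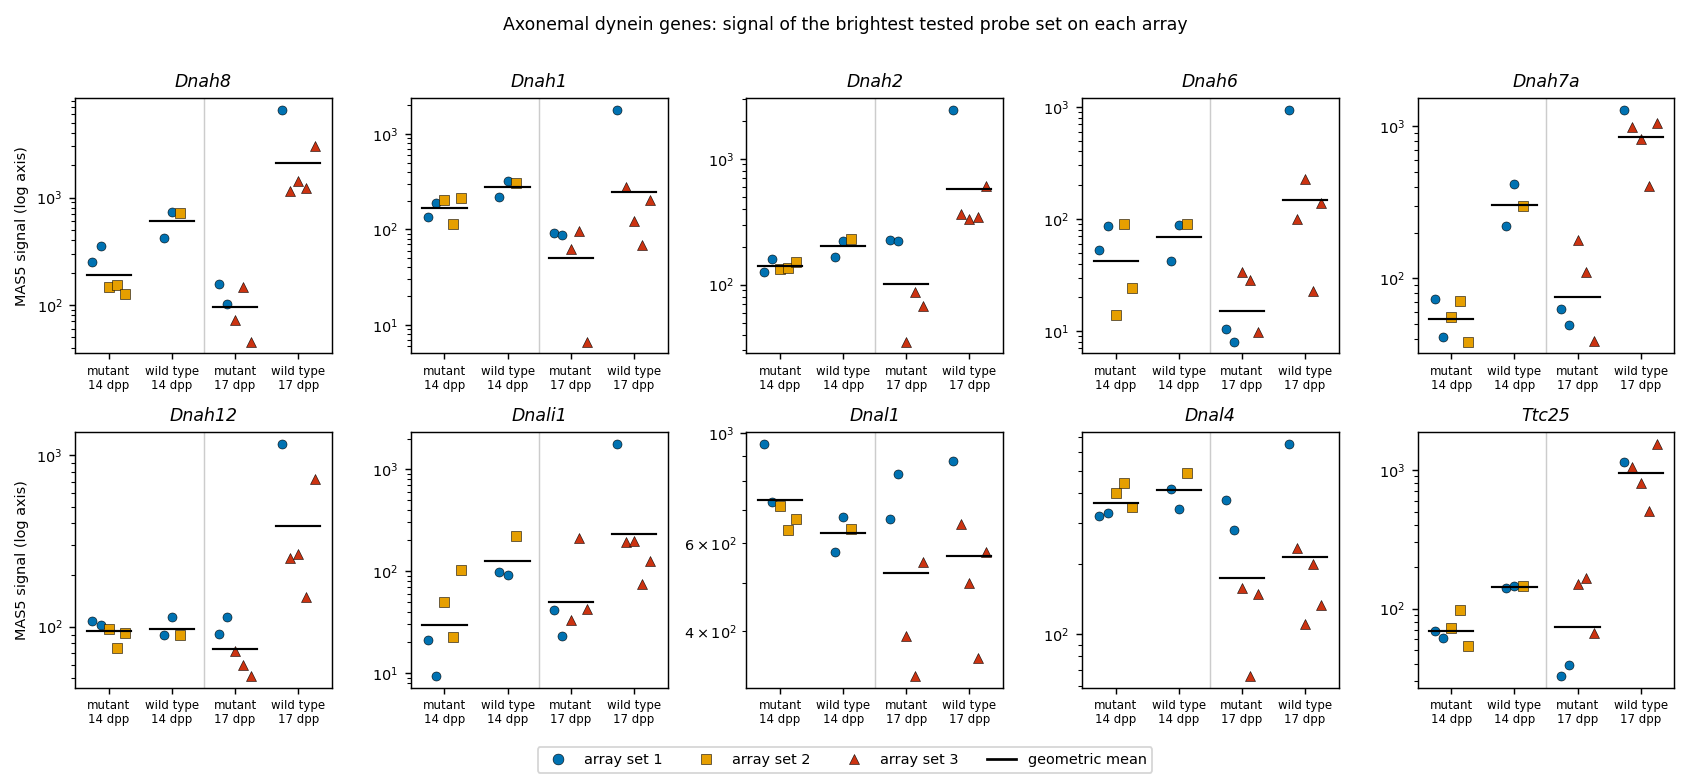
MAS5 signal (log axis) of the brightest tested probe set of each of the 10 genes on every array, in mutants and wild type at 14 and 17 dpp. Colours and symbols mark the array set and the black line is the geometric mean of the group. At 17 dpp the mutant arrays of Dnah8, Dnah2, Dnah7a, Dnah12 and Ttc25 all lie below the wild-type arrays, while those of Dnal1 and Dnal4 overlap them.

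Among outer arm components, Dnah8 encodes a heavy chain motor that is used in sperm. The gene lies on chromosome 17 from 30626935 to 30875762 (GRCm38.p6, as are the positions below). At 14 dpp its brighter probe set (1424936_a_at) read 249, 350.5, 146, 153 and 126 in mutants, against 418, 741 and 722 in wild type. In 17 dpp testes it read 156, 102, 72.7, 148 and 45.3 in mutants, against 6604, 1144, 1416, 1236 and 3029 in wild type. The groups did not overlap at either age, and wild-type replicate 1 of 17 dpp was the highest array. The log2 difference was −1.68 ± 0.55 at 14 dpp, which did not pass (adjusted p = 1), and −4.46 ± 0.476 at 17 dpp, a 22.0-fold fall (adjusted p = 5.4e-06). The other Dnah8 probe set (1425692_a_at) was dim, with 14.5 to 98.8 in mutants and 19.5 to 116.7 in wild type at 17 dpp, and its difference of −0.70 did not pass (adjusted p = 0.596). Because whole testes were measured, fewer cells of a type and less RNA per cell cannot be told apart, here and below.

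Ttc25 (chromosome 11, 100545608 to 100572566) encodes a protein that mouse cilia need for outer arm attachment. It read 69.2, 61.0, 72.2, 97.7 and 53.6 in mutants at 14 dpp, against 140.5, 145 and 146 in wild type. At the later age it read 32.7, 39.4, 151, 166 and 66.6 in mutants, against 1136, 1044, 801, 506 and 1542 in wild type. All wild-type arrays were higher than all mutant arrays at both ages. The difference was −1.05 ± 0.498 at 14 dpp, which did not pass (adjusted p = 1), and −3.68 ± 0.432 at 17 dpp, a 12.8-fold fall (adjusted p = 1.68e-05).

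Dnal1, a light chain that binds an outer arm heavy chain in Chlamydomonas (chromosome 12, 84114279 to 84143517), did not pass at either age. At 17 dpp its brightest probe set (1455630_at) read 672, 829, 391, 324 and 550.2 in mutants, against 878, 655, 499, 352.5 and 575 in wild type. The arrays overlapped, and the difference of −0.12 ± 0.281 did not pass (adjusted p = 0.871), with a 95% interval of −0.71 to 0.47. At 14 dpp it read 952, 725, 714, 638 and 671 in mutants, against 575, 677 and 639.7 in wild type, a difference of 0.22 ± 0.325 (adjusted p = 1, interval −0.46 to 0.90). A second Dnal1 probe set (1453822_at) gave 72.5 to 182.1 in mutants and 140.4 to 263.5 in wild type at 17 dpp, and its difference of −0.72 ± 0.296 did not pass (adjusted p = 0.187). The third (1444098_at) was too dim to be tested, at 9.36 to 57.6 over all arrays.

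Dnal4, another dynein light chain (chromosome 15, 79761449 to 79774467), read 373, 279, 157, 66.0 and 149 in mutants at 17 dpp, against 654, 234, 110.0, 199 and 132.5 in wild type. At 14 dpp it read 319.7, 329.5, 399.8, 442 and 351 in mutants, against 419, 344 and 489.5 in wild type. The groups overlapped at both ages, and at 17 dpp the set 1 arrays were the highest of each genotype. Its difference was −0.18 ± 0.531 at the younger age (adjusted p = 1, interval −1.29 to 0.94) and −0.29 ± 0.46 at 17 dpp (adjusted p = 0.779, interval −1.26 to 0.67).

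Among the inner arm heavy chains, Dnah7a (chromosome 1, 53396995 to 53707301) had all mutant arrays below all wild-type arrays at both ages. At 14 dpp it read 72.8, 41.0, 55.5, 71.3 and 38.2 in mutants, against 220.3, 416 and 299.6 in wild type. At 17 dpp it read 62.6, 49.3, 178, 111 and 38.5 in mutants, against 1290, 992, 819.6, 403 and 1059 in wild type. The highest mutant array of 17 dpp stood at 178 and the lowest wild-type array at 403. The fall was 5.61-fold at 14 dpp (−2.49 ± 0.484, adjusted p = 0.0366) and 11.4-fold at 17 dpp (−3.51 ± 0.419, adjusted p = 2.03e-05). Of the 5 mutant arrays of 14 dpp only replicate 1 exceeded its 40th percentile (72.8 against 70.1). The size of the 14 dpp fall therefore rests on mutant values near or below that floor. The 14 dpp value was −2.47 within set 1 and −2.49 within set 2, but it did not pass within either set (adjusted p = 0.289 and 0.775, where 0.314% and 0.15% of all genes were called lower), nor with the replicate number as a block (−2.35, adjusted p = 0.185). Nor did it pass without any 1 of the 8 arrays of 14 dpp (adjusted p of 0.0534 to 0.451, the highest without wild-type replicate 2) or without wild-type replicate 2, 3 or 5 of 17 dpp (0.0606, 0.0613 and 0.0537).

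Dnah7a has close mouse paralogs, Dnah7b and Dnah7c, so its probe set may also take up their RNA. A probe set annotated to both of those (1438466_at) read 278, 271.5, 318, 361 and 356 in mutants at 14 dpp, against 669, 1308 and 830.4 in wild type. Its 17 dpp values were 567, 533, 170.6, 120.1 and 222 in mutants, against 5435, 2695, 2435, 1054 and 3294 in wild type. The groups did not overlap at either age. The differences were −1.52 ± 0.507 at 14 dpp (adjusted p = 1, and 0.0403 once the array set was a block) and −3.29 ± 0.439 at 17 dpp (adjusted p = 7.07e-05).

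Dnah2, a heavy chain of the double-headed inner arm (chromosome 11, 69420807 to 69549108), read 125, 159, 133, 135 and 150.0 in mutants at 14 dpp, against 166, 220.5 and 232 in wild type (brighter probe set 1438763_at). In testes of 17 dpp it read 227, 221, 35.1, 87.6 and 67.2 in mutants, against 2457, 362, 329, 342 and 604.5 in wild type. The groups did not overlap, and within each genotype the set 1 arrays of 17 dpp were the highest. The difference was −0.54 ± 0.627 for the younger mice (adjusted p = 1) and −2.50 ± 0.543 at 17 dpp, a 5.67-fold fall (adjusted p = 0.00801, but 0.0897 with only the arrays of 17 dpp). The dimmer probe set (1454103_at) gave 4.94 to 78.2 in mutants and 14.1 to 106.4 in wild type at 17 dpp, and its difference of −1.13 ± 0.792 did not pass (adjusted p = 0.465).

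Dnah12, a single-headed inner arm heavy chain (chromosome 14, 26691554 to 26892719), had overlapping arrays of both genotypes at 14 dpp, with 108, 102.5, 96.7, 74.9 and 91.8 in mutants and 89.6, 113 and 90.0 in wild type. The 17 dpp signals were 91.0, 113, 72.3, 59.6 and 51.7 in mutants, against 1163, 250.5, 264, 149 and 721 in wild type. The 17 dpp groups did not overlap. The difference was −0.04 ± 0.518 for the younger mice (adjusted p = 1, interval −1.13 to 1.04, and a difference of 0.018 with the set as a block, adjusted p = 1) and −2.36 ± 0.449 at 17 dpp, a 5.15-fold fall (adjusted p = 0.00257).

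Dnah6, another inner arm heavy chain (chromosome 6, 73017603 to 73222227), was dim in mutants. At 14 dpp it read 52.9, 85.9, 14.0, 89.3 and 24.4 in mutants, against 42.3, 88.5 and 90.1 in wild type. The older testes gave 10.4, 8.02, 33.6, 28.8 and 9.71 in mutants, against 945, 99.2, 227, 22.8 and 139.7 in wild type. Wild-type replicate 4 lay among the mutant arrays. All 5 mutant arrays of 17 dpp lay below their 40th percentile, and against that level as a floor Dnah6 was at least 2.18-fold lower in mutants. Of the 6 arrays on which it exceeded that percentile, 4 were wild type of 17 dpp, so it was tested only through the group in which it was high. Its difference at 17 dpp (−3.28 ± 0.803, adjusted p = 0.0192) did not pass within set 3 (−2.13, adjusted p = 0.0969), with only the arrays of 17 dpp (0.101), with array weights (0.15), or without mutant replicate 2 (0.053) or wild-type replicate 3 (0.0538). At 14 dpp the difference was −0.71 ± 0.928 (adjusted p = 1) over all arrays and 0.14 within set 1.

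Dnah1 (chromosome 14, 31260375 to 31325891) encodes an inner arm heavy chain whose loss in humans gives short and irregular sperm tails. It read 136, 189, 204, 115 and 213 in mutants at 14 dpp, against 218, 319.8 and 308 in wild type (probe set 1434594_at). At 17 dpp it read 92.4, 86.9, 62.7, 96.0 and 6.63 in mutants, against 1802, 277, 123, 69.04 and 203 in wild type. The groups were apart at 14 dpp and overlapped at 17 dpp, where wild-type replicate 4 lay among the mutant arrays. The difference was −0.74 ± 0.882 for the younger mice (adjusted p = 1) and −2.28 ± 0.764 at 17 dpp, which did not pass (adjusted p = 0.0981). With the array set as a block it passed (−2.73, adjusted p = 0.00433), as it did without wild-type replicate 4 (0.0439). The other Dnah1 probe set (1425307_at) was too dim to be tested, with 9.95 to 28.7 in mutants and 20.9 to 148.4 in wild type at 17 dpp.

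Dnali1, an inner arm light chain (chromosome 4, 125055339 to 125065657), was measured by a pair of probe sets with unlike results. The brighter one (1455379_at) read 20.9, 9.34, 49.7, 22.8 and 103.5 in mutants at 14 dpp, against 97.96, 92.4 and 218.5 in wild type. At 17 dpp it read 41.4, 23.2, 33.4, 211 and 42.4 in mutants, against 1781, 193, 195, 75.0 and 126 in wild type. Mutant replicate 5 at 14 dpp and mutant replicate 4 at 17 dpp lay among the wild-type arrays. Its difference was −2.08 ± 0.925 for the younger mice (adjusted p = 1) and −2.22 ± 0.801 at 17 dpp, which did not pass (adjusted p = 0.127). With the array set as a block it passed (−2.38, adjusted p = 0.0308), as it did without mutant replicate 4 of 17 dpp (−2.75, adjusted p = 0.0485).

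The dimmer Dnali1 probe set (1436126_at) read 6.12, 7.28, 6.75, 13.4 and 4.27 in mutants at 14 dpp, against 16.5, 8.94 and 93.4 in wild type. By 17 dpp it read 5.12, 3.17, 11.2, 51.5 and 18.6 in mutants, against 747, 205, 120.1, 67.8 and 416 in wild type. The groups were apart at 17 dpp, and all 5 mutant arrays lay below their 40th percentile. Its difference was −1.77 ± 0.977 for the younger mice (adjusted p = 1) and −4.30 ± 0.846 at 17 dpp (adjusted p = 0.00351), at least 3.28-fold lower in mutants against that floor. It exceeded the percentile on 4 wild-type arrays of 17 dpp, 1 wild-type array of 14 dpp and 0 mutant arrays, so it too was tested only through the group in which it was high.

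**Figure D2:**
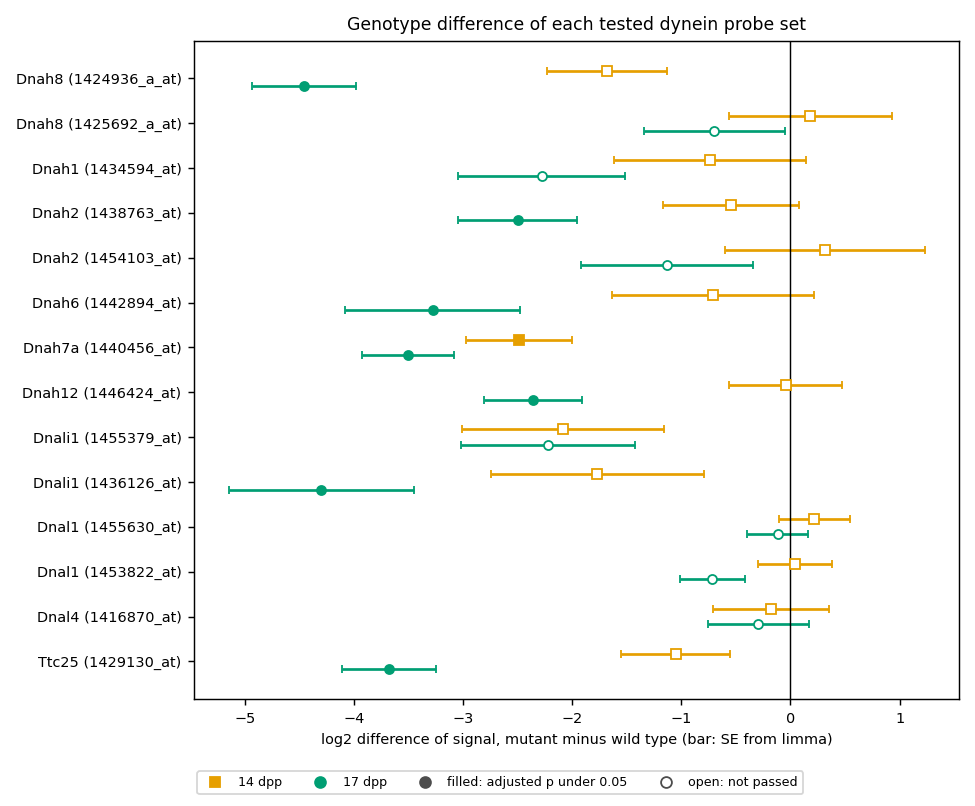
Log2 difference of signal, mutant minus wild type, with its SE from limma, for the 14 tested probe sets of the 10 genes at 14 dpp (squares) and 17 dpp (circles). Filled symbols passed an adjusted p under 0.05: at 14 dpp only Dnah7a did, and at 17 dpp the values that passed ran from −4.46 for Dnah8 to −2.36 for Dnah12.

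Counting arrays without a model, 5 of the 10 members had all mutant arrays below all wild-type arrays at 14 dpp (Dnah1, Dnah2, Dnah7a, Dnah8 and Ttc25), against 4.49% of all genes. At 17 dpp 5 of the 10 did (Dnah2, Dnah7a, Dnah8, Dnah12 and Ttc25), against 4.98% of all genes. None was apart in the other direction at either age, where 2.26% of all genes at 14 dpp and 2.05% at 17 dpp were.

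The size of the 17 dpp difference varied with the array set. With the set as a block 8 members were lower (11.4% of all genes were called lower and 14.4% higher), adding Dnah1 and Dnali1 to the 6. Within set 1, with 2 mutant arrays and 1 wild-type array, 7 members passed (4.08% of all genes lower) and the median difference was −4.43. Within set 3, with 3 mutant and 4 wild-type arrays, 5 passed (8.67% of all genes lower) and the median was −2.19. Dnah8 had −5.71 in set 1 and −4.32 in set 3, Ttc25 had −4.99 and −2.92, and Dnali1 had −5.85 and −1.04. For Ttc25, Dnali1 and Dnah6 both mutant arrays of 17 dpp in set 1 lay below their 40th percentile (52.5 and 52.2). The size of their set 1 falls therefore rests on values below that floor. The fall was the larger one in set 1 for 9 of the 10 members, but a test of the difference between the sets called 0 of them in limma (3 at an unadjusted p under 0.05: Dnali1, Dnah6 and Ttc25), where 0.0196% of all genes were called. In set 1 the wild type of 17 dpp is replicate 1 alone, which held the highest wild-type signal of 17 dpp for 9 of the 10 members. For Ttc25 it was replicate 5.

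**Figure D3:**
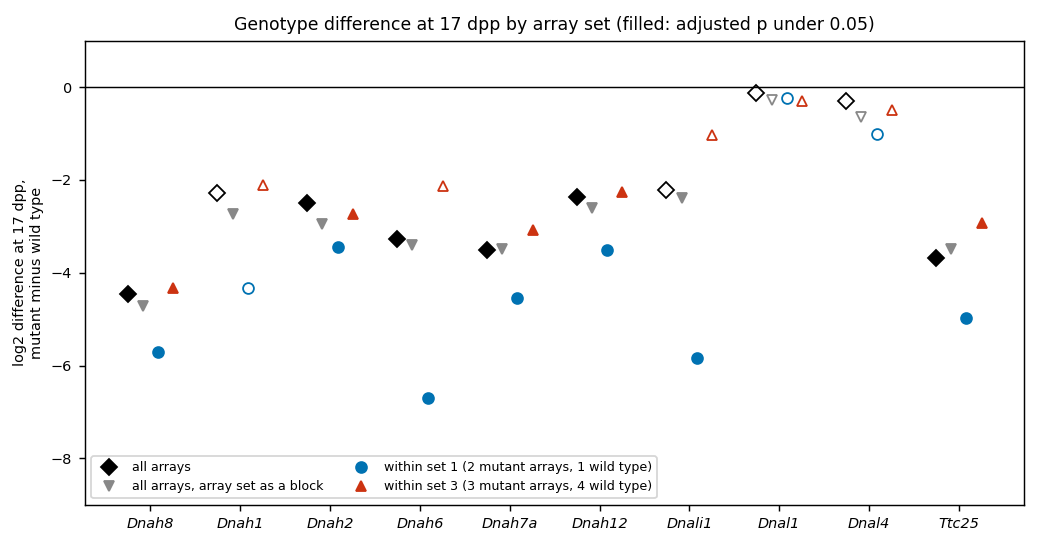
Log2 difference at 17 dpp, mutant minus wild type, for each gene over all arrays without and with a block for the array set, within set 1 and within set 3. Filled symbols passed an adjusted p under 0.05. Dnah8, Dnah2, Dnah7a, Dnah12 and Ttc25 passed in all 4, and all values of Dnal1 and Dnal4 are open.

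Whether the genotype difference itself changed between the ages was tested by the interaction (the 17 dpp difference minus the 14 dpp difference). It called 0 of the 10 members in limma (4 at an unadjusted p under 0.05), where 0.359% of all genes were called lower. All 10 values were negative, with a median of −1.75 against 0.22 over all genes. With the array set as a block 3 passed (1.82% of all genes), namely Dnah8 (−3.18, adjusted p = 0.00967), Dnah2 (−2.38, adjusted p = 0.00797) and Dnah12 (−2.63, adjusted p = 0.0246). The 2 ages share no arrays, but at 17 dpp most arrays are of set 3 and at 14 dpp none is.

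In mutants none of the 10 members was called higher or lower at 17 than at 14 dpp by limma (2 had an unadjusted p under 0.05), where 0.647% of all genes were called higher and 1.12% lower. In wild type 4 members were called higher at 17 dpp, where 7.06% of all genes were called higher and 18.9% lower. These were Ttc25 (2.71 ± 0.498, adjusted p = 0.00272), Dnah12 (1.98 ± 0.518, adjusted p = 0.0173), Dnah8 (1.79 ± 0.55, adjusted p = 0.0311) and Dnah7a (1.496 ± 0.484, adjusted p = 0.0368). The median over the members was −0.48 in mutants (−0.26 over all genes) and 1.28 in wild type (−0.41 over all genes). With the array set as a block 0 members were called in mutants (0.144% of all genes higher and 0.647% lower), and 4 were higher in wild type (4.82% of all genes), with Dnah2 (3.28, adjusted p = 1.74e-04) in place of Dnah7a (1.38, adjusted p = 0.193).

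The count of members higher in wild type was 1 without wild-type replicate 1 of 14 dpp (2.82% of all genes higher) and 1 without replicate 3 of that age (3.11%). It was 2 without replicate 2 of 14 dpp (4.36%) and 2 without replicate 5 of 17 dpp (4.39%). In mutants 1 member was lower with age without mutant replicate 1 of 17 dpp, where 15.4% of all genes were called lower. Within set 1, the only set with both ages, the wild type of 17 dpp is replicate 1 alone, which is assumed to vary like the other arrays. There 0 members were called in mutants (0.0392% of all genes higher and 0.32% lower), and 4 were higher in wild type (1.99% of all genes): Dnah2 by 3.68, Dnah8 by 3.57, Dnah12 by 3.53 and Ttc25 by 2.995.

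**Figure D4:**
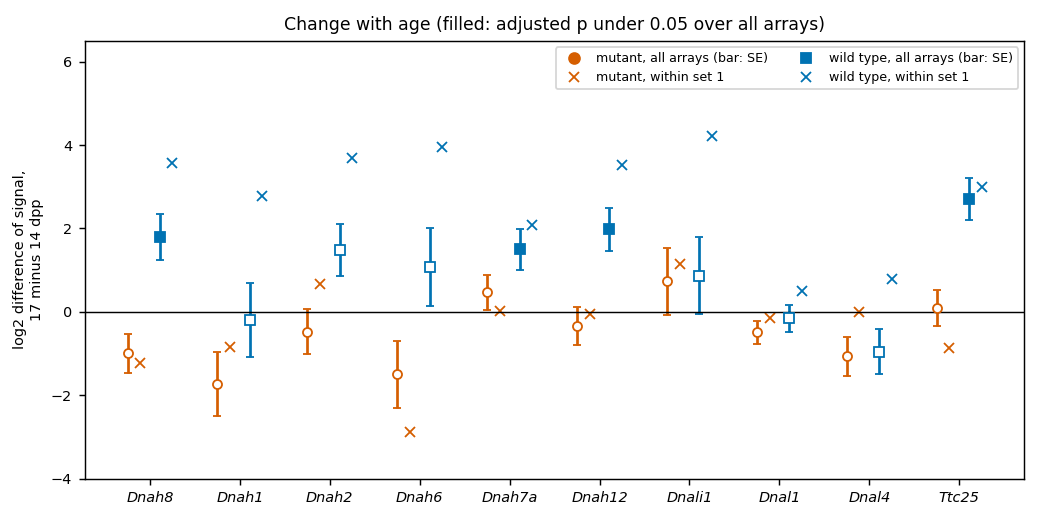
Log2 difference of signal, 17 minus 14 dpp, in mutants (circles) and wild type (squares) over all arrays with its SE, and within set 1 (crosses). Filled symbols passed an adjusted p under 0.05 over all arrays: Ttc25, Dnah12, Dnah8 and Dnah7a in wild type, and none in mutants.

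The 5 genes whose pattern was most like that of Dnah8 over the 18 arrays, by Pearson correlation of log2 signal after the mean of each array set was subtracted, were Supt20 (0.979), Hdgfl1 (0.978), Alx1 (0.976), Dennd5b (0.973) and 1700010I14Rik (0.971). All 18 arrays share the genotype and age contrasts, so these are descriptions. At 17 dpp these genes had differences from −5.91 (1700010I14Rik) to −2.002 (Supt20). Among the members the correlation with Dnah8 was 0.96 for Ttc25, 0.916 for Dnah7a, 0.901 for Dnah2, 0.87 for Dnah12, 0.844 for Dnah1, 0.816 for Dnah6 and 0.694 for Dnali1. It was 0.476 for Dnal4 and 0.235 for Dnal1. Many other genes were more like Dnah8 than these members were. The number of genes with a higher correlation was 21 for Ttc25, 212 for Dnah7a, 294 for Dnah2 and 472 for Dnah12. It was 614 for Dnah1, 754 for Dnah6, 1314 for Dnali1, 2311 for Dnal4 and 3744 for Dnal1.

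Other genes of dynein arms gave mixed results by role. Of 12 listed intermediate and other light chains 8 were tested, and 3 were lower in mutants at 17 dpp (median −1.87, and 5 with the array set as a block). Dnai3 (Wdr63 on the array), an inner arm intermediate chain, had signals of 3.10 to 60.6 in mutants against 168 to 1299 in wild type, and was at least 9.26-fold lower in mutants (adjusted p = 3.37e-05). This is a bound because no mutant array of either age exceeded its 40th percentile, so Dnai3 was tested through wild-type arrays alone. Here and below, an adjusted p beside a bound belongs to the measured log2 difference (−5.53 ± 0.692 for Dnai3). The bound itself was not tested. Dynlrb2, a roadblock-type light chain, fell by 5.17 ± 0.417 on the log2 scale (adjusted p = 2.37e-07), with 36.7 to 133 in mutants against 1889 to 5059 in wild type. It was also lower at 14 dpp (−2.88, adjusted p = 0.00784), as 1 of 8. Dynlt2b (Tctex1d2 on the array), a Tctex-type light chain, fell by 2.06 ± 0.379 (adjusted p = 0.00189).

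Of 15 other docking and attachment factors 13 were tested, and 4 were lower at 17 dpp (median −2.10, and 9 with the block) and 0 at 14 dpp. Ccdc39, part of the ruler that sets where inner arms attach, fell by 4.35 ± 0.45 (adjusted p = 3.77e-06), with 217 to 1207 in mutants against 4746 to 21940 in wild type. Ccdc65 and Drc1, both of the nexin-dynein regulatory complex, exceeded the 40th percentile on 0 mutant arrays of either age and were tested through wild-type arrays alone. Ccdc65 was at least 1.52-fold lower (adjusted p = 0.0206) and did not pass within set 3 (adjusted p = 0.0687). Drc1 was at least 5.83-fold lower (adjusted p = 8.95e-04). Of the 12 factors other than Ccdc65, which needed the wild-type arrays of 17 dpp to meet the filter, 3 were lower (median −1.90).

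Of 17 dynein arm assembly factors 16 were tested, and 11 were lower at 17 dpp (median −2.09, and 14 with the block). The 3 largest falls, those of Zmynd10, Dnaaf6 and Daw1, are bounds, since these genes exceeded the 40th percentile on 0 mutant arrays of either age and were tested through wild-type arrays alone. Zmynd10 had 4.5 to 40.6 in mutants against 292 to 4137 in wild type, at least 13.5-fold lower (adjusted p = 7.29e-06). It was also the 1 assembly factor called at 14 dpp, at least 6.58-fold lower (adjusted p = 0.00372). Dnaaf6 was at least 16.1-fold lower (adjusted p = 1.05e-06) and Daw1, which takes part in outer arm transport, at least 8.84-fold lower (adjusted p = 7.28e-06). Of the 15 factors other than Daw1, which needed the wild-type arrays of 17 dpp to meet the filter, 10 were lower (median −2.04).

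Outside the 10, besides the probe set of Dnah7b and Dnah7c given above, 2 axonemal heavy chains were tested, Dnah5 and Dnah11, both outer arm motors of airway cilia. Dnah5 read 23.1 to 111.7 in mutants against 3.63 to 46.4 in wild type at 17 dpp, a difference that did not pass (1.60 ± 0.68, adjusted p = 0.201). Dnah11 read 50.6 to 341.8 in mutants against 11.3 to 98.3 in wild type, which did not pass either (1.74 ± 0.731, adjusted p = 0.195). Dnah9 and Dnah17 were on the array but did not pass the filter. Of 14 tested genes of cytoplasmic dynein and dynactin 1 was lower, Dync1i2, an intermediate chain (−0.94 ± 0.245, adjusted p = 0.0283), and 0 were higher (median 0.15). With the block 6 were lower and 3 higher. Over all genes 5.83% were called lower and 2.03% higher without the block, and 11.4% and 14.4% with it. The heavy chain of cytoplasmic dynein 1, Dync1h1, had a difference of 0.68 ± 0.833 (adjusted p = 0.702). That of the dynein of intraflagellar transport, Dync2h1, had −1.17 ± 0.472 (adjusted p = 0.176), and it passed with the block (−1.54, adjusted p = 4.28e-04).

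**Figure D5:**
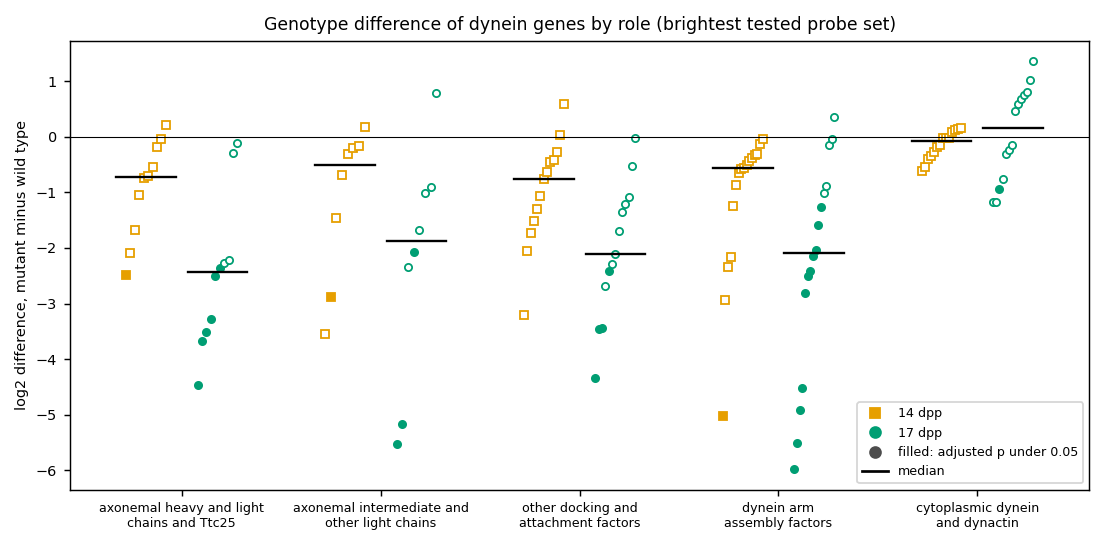
Log2 difference, mutant minus wild type, of each tested gene by role at 14 dpp (squares) and 17 dpp (circles), with the list median as a line. Filled symbols passed an adjusted p under 0.05, and genes given as a bound in the text are drawn at their measured difference. At 17 dpp the medians lie at −2.43 for the 10 genes described here and 0.15 for cytoplasmic dynein and dynactin. Those of the other axonemal lists drawn lie at −1.87, −2.10 and −2.09. The 2 other axonemal heavy chains tested, Dnah5 and Dnah11, are not drawn, and their median at 17 dpp is 1.67.

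Markers of cells that could hold these transcripts moved too. Of 12 pachytene spermatocyte markers 10 were lower in mutants at 17 dpp (median −4.61). Without 1 that met the filter only through wild type of 17 dpp, 9 of 11 were (median −4.12). In all, 3 of the 10 needed wild-type arrays of either age to meet it. Sycp3 (−0.55 ± 0.456, adjusted p = 0.545) and H1f6 (0.04 ± 0.688, adjusted p = 0.983) were not called. The summed signal of the 12 was 15425 to 42010 in mutants against 85028 to 187612 in wild type. Sycp3 alone read 7110 to 36180 in mutants against 8155 to 41710 in wild type. At 14 dpp 7 of the 12 were lower, and the sum was 15328 to 18691 in mutants against 26928 to 35985 in wild type. The summed signal of the 10 dynein genes was 1823 to 2106 in mutants and 2388 to 3236 in wild type at 14 dpp, and 1027 to 1759 in mutants and 3355 to 18710 in wild type at 17 dpp. Sums like these, here and below, weigh bright probe sets most and do not stand for each gene. Dnal1, which was not called, gave 638 to 952 of the sum in mutants and 575 to 677 in wild type at 14 dpp. Of 8 tested round spermatid markers 1 was lower at 17 dpp, the acrosomal protease Acr (summed signal 581 to 2109 in mutants and 1067 to 1763 in wild type). The part of the spermatocyte markers in the dynein differences was not tested.

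Ciliated epithelium near the testis also carries axonemal dynein. Of 6 tested markers of multiciliated epithelium 2 were lower at 17 dpp, Cdhr4 (−3.50) and Tekt1 (−2.27), the second of which is also known from sperm tails. Of these 2 calls, 1 met the filter of 3 arrays only with wild-type arrays counted. The summed signal of the 6 markers was 1088 to 12381 in mutants and 1732 to 16964 in wild type. Foxj1, the regulator that defines these cells, did not pass the filter. Of 5 tested efferent duct and epididymis markers 0 passed in limma at 17 dpp (summed signal 199 to 372 in mutants and 306 to 459 in wild type). Of the 12 Sertoli cell markers 1 was higher at 17 dpp (Amhr2), 6 in the fit with the block, and all 12 differences were positive (median 0.76). Of 11 spermatogonia markers 1 was lower, Id4 (−2.72), and 0 higher (1 lower and 3 higher with the block). The other spermatogonia differences were all positive (list median 0.82, against 0.26 over all genes). Of 8 macrophage markers 1 was higher (3 with the block), and none of the differences was negative (median 0.96). Among all genes 5.83% were called lower and 2.03% higher at 17 dpp, and 11.4% and 14.4% with the block. All 12 Sertoli cell markers lay above the 40th percentile on every array of 14 dpp.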

How the data were processed

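Total RNA of 18 testis samples was labelled and hybridised to Affymetrix Mouse Genome 430 2.0 arrays, per the labels and the series' text. The authors deposited linear MAS5 signal intensity, made in GCOS, per the series' text and the submitters' processing notes, which give no version. Their mean without the extreme values is 500 on sets 1 and 2 and 394.9 on set 3.

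The 64 control probe sets were used only to define the array sets (bounds of 1.9 and 10). Log2 signal of the 34764 tested probe sets was modelled in limma 3.58.1 (R 4.3.3) with 1 mean per group over 18 arrays (14 residual degrees of freedom), empirical Bayes moderation with an intensity trend, two-sided tests and Benjamini-Hochberg adjustment over all tested probe sets at a threshold of 0.05. A gene is represented by its brightest tested single-gene probe set. The block fit adds the array set (12 residual degrees of freedom), and within-set fits share the spread of all arrays, so a lone array is assumed to vary like the others. The fit was tested on simulated data. Figures used matplotlib 3.10.9.

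The members, lists and tests were chosen with earlier results of these data known. Of each further dynein list, up to 3 called genes with the largest falls and 3 with the largest rises at 17 dpp are named, and up to 3 called at 14 dpp. The array sets were defined after the data were examined. A fold against a group whose arrays all lie below their own 40th percentile (49.2 to 93.4) is a bound, with that percentile as the floor. No test was run on the bounds, and the adjusted p beside one is that of the measured difference.

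Same-numbered arrays were checked for pairing by the correlation of their deviations from the group means. The correlation was 0.283, 0.355 and 0.385 for the 3 pairs of 14 dpp, which each share an array set, and −0.227 to 0.777 for the 5 pairs of 17 dpp. The replicate number is therefore an alternative and its value stands beside a 14 dpp call it changes. The other alternatives were normalization, filters, an offset of 32, array weights and leaving out arrays. Protein sequences are not used here.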

Additional observations from a re-analysis of the deposited data

Results flagged for a closer look

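Of 42 groups of 5 arrays examined, 2 held an array far from the rest, and chance alone flags about 1 group in 20. Mutant replicate 5 of 17 dpp had a Dnah1 signal of 6.63, against 62.7 to 96.0 on the other 4 mutant arrays of that age, a gap of 0.841 of the range on the log2 scale. Mutant replicate 4 of 17 dpp had a Dnali1 signal (brighter probe set) of 210.9, against 23.2 to 42.4 on the others, a gap of 0.726 of the range. Both arrays are of set 3, and the cause was not tested.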

How the results depend on the processing

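Under the alternatives the count of members lower at 17 dpp ran from 4 to 8, and from 5 to 7 when 1 array was left out. The count at 14 dpp was 0 within set 1, within set 2 and with the replicate block, 3 with array weights (Dnah7a, Dnah8 and Ttc25, where 7.77% of all genes were called lower), and 0 to 1 with 1 array left out. The interaction count was 1 on log2(signal + 32) (1.1% of all genes lower), 3 with the array set block (1.82%), 6 without the set 3 arrays (2.12%), 2 with array weights (1.46%) and 0 to 0 with 1 array left out. The count of members higher with age in wild type was 8 without the set 3 arrays (6.91% of all genes higher) and 1 to 5 with 1 array left out (2.82% to 10.9%). In mutants 2 members were lower with age with array weights, where 29.1% of all genes were called lower, and 0 to 1 with 1 array left out (0.157% to 15.4%). The replicate block gave 6 members at 17 dpp and changed no other call at that age.

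Signs turned for differences that did not pass. Dnah12 at 14 dpp was 0.018 with the array set block, 0.065 within set 1, 0.14 with the replicate block and −0.10 to 0.068 with 1 array left out. Dnah6 at 14 dpp was 0.14 within set 1, and Dnal4 at 14 dpp was 0.068 with the replicate block. With 1 array left out, Dnal1 at 17 dpp ran from −0.29 to 0.056 and Dnal4 from −0.57 to 0.11, positive without mutant replicate 4 or wild-type replicate 1. Centring on a common median moved the median of all genes from 0.26 to 0.12 at 17 dpp and from 0.003 to −0.12 at 14 dpp. The cause of these changes was not tested. The number of arrays, 3 of wild type at 14 dpp, limits the precision. Dnah6 and the dimmer Dnali1 probe set lie below the 40th percentile on all mutant arrays of 17 dpp. Dnah7a lies below it on all but 1 of the mutant arrays of 14 dpp.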
